A study of Mus musculus with 3 samples.

Results

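Homeobox genes encode transcription factors that bind DNA through a homeodomain, and outside the Hox clusters they pattern the brain, sense organs, limbs, heart, gut and endocrine glands. A list of 57 such genes was followed across 3 ChIP-Seq libraries from mouse embryonic stem cells (ESCs). The list covered the Lhx, Isl, Nkx, Dlx, Msx, En, Emx, Hhex, Irx, Meis, Otx, Pitx, Gsc, Cdx, Gsx, Gbx and Evx families and the genes Six2 to Six6. All 57 symbols were found among the 22350 protein-coding genes of GENCODE vM1 on mm9 that lie on the 19 autosomes and the X chromosome. Each gene was represented by a promoter window, the sequence within 2 kb of any of its annotated transcript starts. The windows had a median length of 4055 bp, against 4053 bp over all protein-coding genes, and 31 of the 57 genes had more than 1 annotated start.

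In ESCs, most developmental regulators of this kind are silent but poised. Their CpG-rich promoters carry H3K27me3, the mark placed by Polycomb proteins, alongside H3K4me3, a combination called bivalent. H2A.Z is a variant of histone H2A found in nucleosomes at the promoters of active and poised genes, and the face of the nucleosome that it exposes includes a group of negatively charged residues, the acidic patch.

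The study compared wild-type H2A.Z (H2A.Z WT) with a mutant, H2A.Z AP3, in which acidic patch residues of H2A.Z were exchanged for those of H2A by the substitutions G92N, D97N and S98K. Both proteins were tagged with YFP and expressed from a lentiviral, doxycycline-inducible CMV promoter in ESCs sorted for YFP, while hairpins depleted the endogenous H2A.Z, and both were immunoprecipitated with an antibody against GFP. The last library, with the genotype label WT, was immunoprecipitated with an antibody against H3K27me3. No H3K27me3 library of H2A.Z AP3 cells was analysed here, so the H3K27me3 values describe cells labelled WT. The strain label of all 3 samples was V6.5 (129SvJaexC57BL/6), whereas the treatment text and methods derive the transgenic lines from KH2 ESCs.

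Each group was 1 library, so no difference between libraries could be set against replicate error and no test was made. The data were lists of enriched regions, stretches of 25-bp bins that the authors called at a P threshold of 1e-9, without heights or read numbers. The sequencing depth of the libraries was therefore unknown. The lists held 78359 regions over 28.3 Mb for H2A.Z WT, 14599 regions over 3.5 Mb for H2A.Z AP3 and 16970 regions over 9.32 Mb for H3K27me3. Because fewer regions were called for H2A.Z AP3 over the whole genome, its values at the homeobox genes are given beside those of all genes. H2A.Z AP3 regions were also unevenly spread over chromosomes. They lay at 46.8% of protein-coding genes on chromosomes 6 and 8 and at 20.5% elsewhere, so the main values for H2A.Z AP3 are given with and without these 2 chromosomes. Of 8 ESC marker genes looked up for comparison (Pou5f1, Nanog, Sox2, Klf4, Esrrb, Zfp42, Dppa4 and Tdgf1), only Esrrb had a region of any library in its window, and the lists hold no expression values with which to check the cell type.

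Nearly all of the homeobox promoters carried both wild-type H2A.Z and H3K27me3. An H2A.Z WT region lay in the window of 56 of 57 genes (98.2%, 95% Wilson interval 90.7 to 99.7), against 61.7% of all protein-coding genes. An H3K27me3 region likewise lay at 56 of 57 genes, against 18.2% of all genes. The intervals treat genes as independent and cover counting error only. The same 56 genes had both, and Six4, which acts in muscle and kidney development, had neither. The H2A.Z WT region nearest to a start of Six4 was 10250 bp away, the H2A.Z AP3 region 10300 bp and the H3K27me3 region 61757 bp.

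H2A.Z AP3 regions were found at fewer of the genes. They lay at 20 of 57 promoters (35.1%, interval 24.0 to 48.1), against 23.2% of all protein-coding genes. Every one of these 20 genes also had H2A.Z WT and H3K27me3, a combination seen at 7.9% of all genes. The other 36 genes had H2A.Z WT and H3K27me3 without H2A.Z AP3, a combination seen at 9.39% of all genes. None had H2A.Z WT with no other region, or H2A.Z WT and H2A.Z AP3 without H3K27me3 (0 of 57 each, upper bound 6.31%), although these patterns held 30.4% and 14.0% of all genes. None had H3K27me3 alone, H2A.Z AP3 alone or both without H2A.Z WT either, and these were rare over all genes (0.774%, 1.18% and 0.103%). Six4 shared the absence of all 3 with 36.3% of all genes. Around the most upstream start alone, H2A.Z WT lay at 55 of 57 genes (58.8% of all genes), H2A.Z AP3 at 19 (20.8%) and H3K27me3 at 56 (16.9%).

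Read against genes that also had H2A.Z WT and H3K27me3, the homeobox genes did not carry H2A.Z AP3 more often. Among all 3864 such genes, the listed ones included, 45.7% had an H2A.Z AP3 region, and among the 56 homeobox genes 20 did (35.7%, interval 24.5 to 48.8). The share over all such genes thus lay inside the interval of the homeobox genes. On chromosomes 6 and 8, 6 of 7 homeobox genes had H2A.Z AP3 (85.7%, interval 48.7 to 97.4), against 80.0% of genes with both other regions. Elsewhere, 14 of 49 had it (28.6%, interval 17.8 to 42.4), against 41.6%. Again both shares over all such genes fell inside the intervals. The 6 genes on these 2 chromosomes that had H2A.Z AP3 were Dlx6, Emx1 and Evx1 on chromosome 6 and Irx3, Irx5 and Irx6 on chromosome 8, and the exception was Dlx5.

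**Figure D1:**
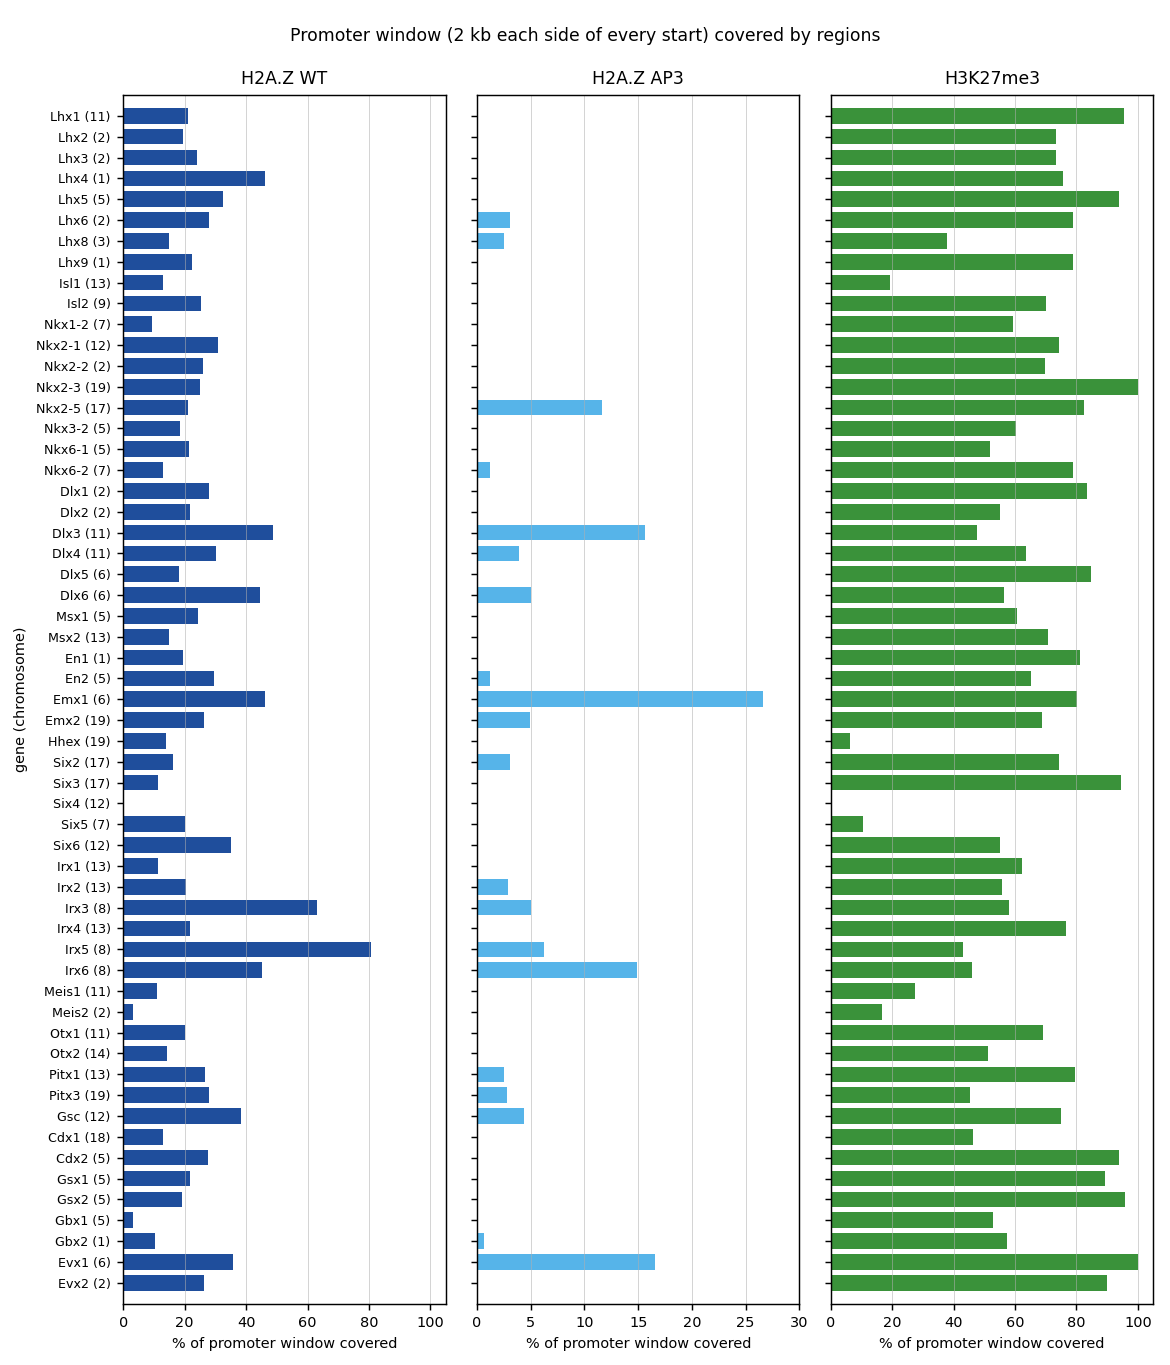
Bars give the percent of each gene's promoter window (2 kb each side of every start) covered by regions, with the chromosome in brackets and 1 library per panel (H2A.Z WT left, H2A.Z AP3 middle, H3K27me3 right); the H2A.Z AP3 axis ends at 30%. H3K27me3 covered 50% or more of the window at 45 of 57 genes, H2A.Z AP3 reached 26.6% at Emx1 and was absent at 37 genes, and Six4 had no bar in any panel.

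H3K27me3 was the broadest of the 3 signals at these promoters. It covered a median of 3158 bp of the window (95% order-statistic interval 2640 to 3750 bp, highest 8100 bp at Lhx2), and a median of 69.0% of its length. Over the 3864 genes with H2A.Z WT and H3K27me3 the median was 1050 bp. H2A.Z WT covered a median of 1175 bp at the homeobox genes (interval 900 to 1450 bp, highest 3700 bp at Emx1), and 1100 bp over genes with both. In windows around the most upstream start alone, which are of 1 length for all genes, the medians were 875 bp for H2A.Z WT against 974.5 bp, and 2590 bp for H3K27me3 against 1000 bp. The homeobox genes thus stood apart from other genes with both regions in the length of H3K27me3, and not in that of H2A.Z WT. H3K27me3 covered more of the window than H2A.Z WT at 51 of 57 homeobox genes, and at 1769 of the 3864 genes with both. The exceptions with less H3K27me3 than H2A.Z WT were Hhex, Six5, Irx3, Irx5 and Dlx3.

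Most wild-type H2A.Z at these promoters lay within H3K27me3 regions. Summed over the 336.3 kb of windows, H2A.Z WT covered 22.8% of bases, H3K27me3 61.3% and H2A.Z AP3 2.24%. Of the bases covered by H2A.Z WT, 79.8% lay inside H3K27me3 regions, against 39.0% over the windows of genes with both. H3K27me3 also covered 55.8% of the window bases outside H2A.Z WT, against 12.6%. At 49 of 56 genes 50% or more of the H2A.Z WT bases were inside H3K27me3, and at 10 genes all of them were. At Hhex and Gbx2 none were.

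Bases covered by H2A.Z AP3 came to 9.82% of those covered by H2A.Z WT, against 12.8% over genes with both. On chromosomes 6 and 8 the value was 26.5% (against 31.5%), and on the other chromosomes 5.55% (against 9.42%). The mutant regions were short and lay mostly within the wild-type ones, wholly so at 16 of the 20 genes. There were 35 at the 20 genes, of which 33 overlapped an H2A.Z WT region and 27 an H3K27me3 region. By bases, 94.4% of H2A.Z AP3 lay in H2A.Z WT and 81.4% in H3K27me3, against 91.3% and 42.4% over genes with both. The share in H2A.Z WT was thus near that of genes with both. Without chromosomes 6 and 8 the values were 95.6% and 76.4%, against 91.0% and 43.8%. H3K27me3 itself covered 61.3% of all window bases at the homeobox genes and 16.8% at genes with both. The part of this wider coverage in the share of H2A.Z AP3 inside H3K27me3 was not tested. Of the H2A.Z WT bases inside H3K27me3, 9.77% were also covered by H2A.Z AP3, and of those outside it 7.25%. This order rested on chromosomes 6 and 8 (32.0% inside and 9.03% outside), and on the other chromosomes it was the opposite (5.07% and 6.41%).

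**Figure D2:**
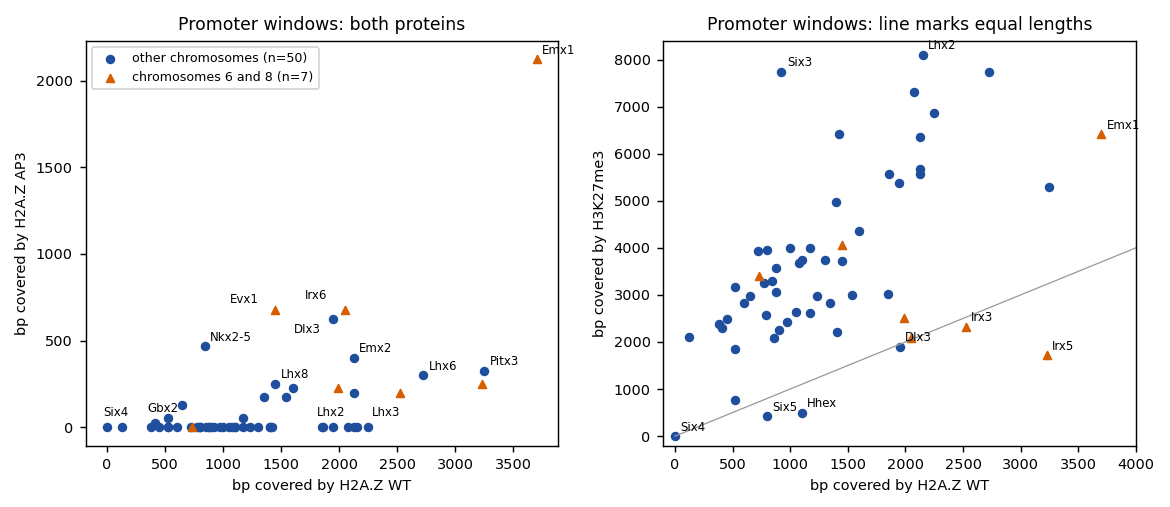
Each point is a gene, placed by the bp of its promoter window covered by H2A.Z WT (x) and by H2A.Z AP3 (left panel, y) or H3K27me3 (right panel, y), with genes on chromosomes 6 and 8 as triangles. Emx1 had the most of both H2A.Z proteins (3700 and 2125 bp), Lhx2 and Lhx3 had over 2000 bp of H2A.Z WT and 0 bp of H2A.Z AP3, and 5 genes lie below the line of equal H2A.Z WT and H3K27me3.

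The genes with the most H2A.Z AP3 were Emx1 (2125 bp in 5 regions), Irx6 (675 bp), Evx1 (675 bp), Dlx3 (625 bp) and Nkx2-5 (466 bp). At the stricter threshold of 1e-12 the order changed, with 1400 bp at Emx1, 425 bp at Irx6, 366 bp at Nkx2-5, 250 bp at Dlx3 and 100 bp at Evx1. The longest H2A.Z AP3 region of Evx1, 525 bp at 1e-9, had no base in the list at 1e-12. Emx1, a cerebral cortex regulator, held 28.2% of all H2A.Z AP3 bases in the windows of the list. Its longest H2A.Z AP3 region, chr6:85143726-85144650 on mm9, was 925 bp long and was centred in coding sequence downstream of its downstream start. By their midpoints, 15 of the 35 regions lay in coding exons, 6 in introns, 9 upstream of the gene and 5 in untranslated or non-coding exons. The following sequences are those of single 25-bp bins from the longest H2A.Z AP3 region of the gene, shown for leading genes where that bin lay outside untranslated sequence. They are from mm9, 5′ to 3′ on the strand of the gene, with CpG dinucleotides in capitals.
Emx1, coding exon, plus strand, chr6:85144176-85144200: ggaagcagctggcaggcagcctcag
Evx1, intron, plus strand, chr6:52264301-52264325: actccacccacagttcccttcatct
Dlx3, coding exon, plus strand, chr11:94981676-94981700: cCGacatctccagctCGctcagctg
Nkx2-5, coding exon, minus strand, chr17:26976526-26976550: agaCGgatggCGcCGagagaccaCG
Emx2, coding exon, plus strand, chr19:59533876-59533900: CGcCGcCGcCGgcaggggCGtctac
Pitx3, intron, minus strand, chr19:46222251-46222275: gCGtctggaagtaggggtgCGCGta
Lhx6, coding exon, minus strand, chr2:35958926-35958950: ctctgctgcctcttcCGtgcCGtct

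For contrast, the next sequences are bins of the longest H2A.Z WT region at genes that had much H2A.Z WT and no H2A.Z AP3 in the window, printed in the same way.
Lhx2, intron, plus strand, chr2:38207776-38207800: aaagggagaacCGgtggaagcccta
Nkx2-2, upstream, minus strand, chr2:147020676-147020700: cactccaggtgagcctcctgttCGc
Isl2, coding exon, plus strand, chr9:55390226-55390250: cagtgccaggtgggcttcagcagca

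The bins of Emx1 and Evx1, the genes with the longest H2A.Z AP3 regions, held no CpG, while that of Emx2 held 5. Over all bins in the windows, CpG density was 6.11 per 100 bp under H2A.Z AP3 and 6.75 per 100 bp under H2A.Z WT without H2A.Z AP3. It was 8.22 per 100 bp under H2A.Z WT outside H3K27me3 and 6.33 inside. Bins with H3K27me3 alone had 2.89 per 100 bp, less than the 3.50 per 100 bp of bins outside both. H2A.Z WT thus lay over the CpG-rich part of the windows, and H3K27me3 covered CpG-poorer sequence beside it as well.

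H2A.Z AP3 was found mainly at genes with long H2A.Z WT coverage. The 20 genes with H2A.Z AP3 had a median of 1775 bp of H2A.Z WT (411 to 3700 bp), and the 36 without it had 988 bp (125 to 2250 bp), so the ranges overlapped. Without chromosomes 6 and 8 the medians were 1494.5 bp and 1001 bp. Ordered by H2A.Z WT bases, 12 of the 19 genes with the most had H2A.Z AP3, 4 of the next 19 and 4 of the last 19. Without chromosomes 6 and 8 these counts were 7 of 14, 3 of 18 and 4 of 18. H3K27me3 did not differ in the same direction, at a median of 64.4% of the window with H2A.Z AP3 and 70.3% without.

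**Figure D3:**
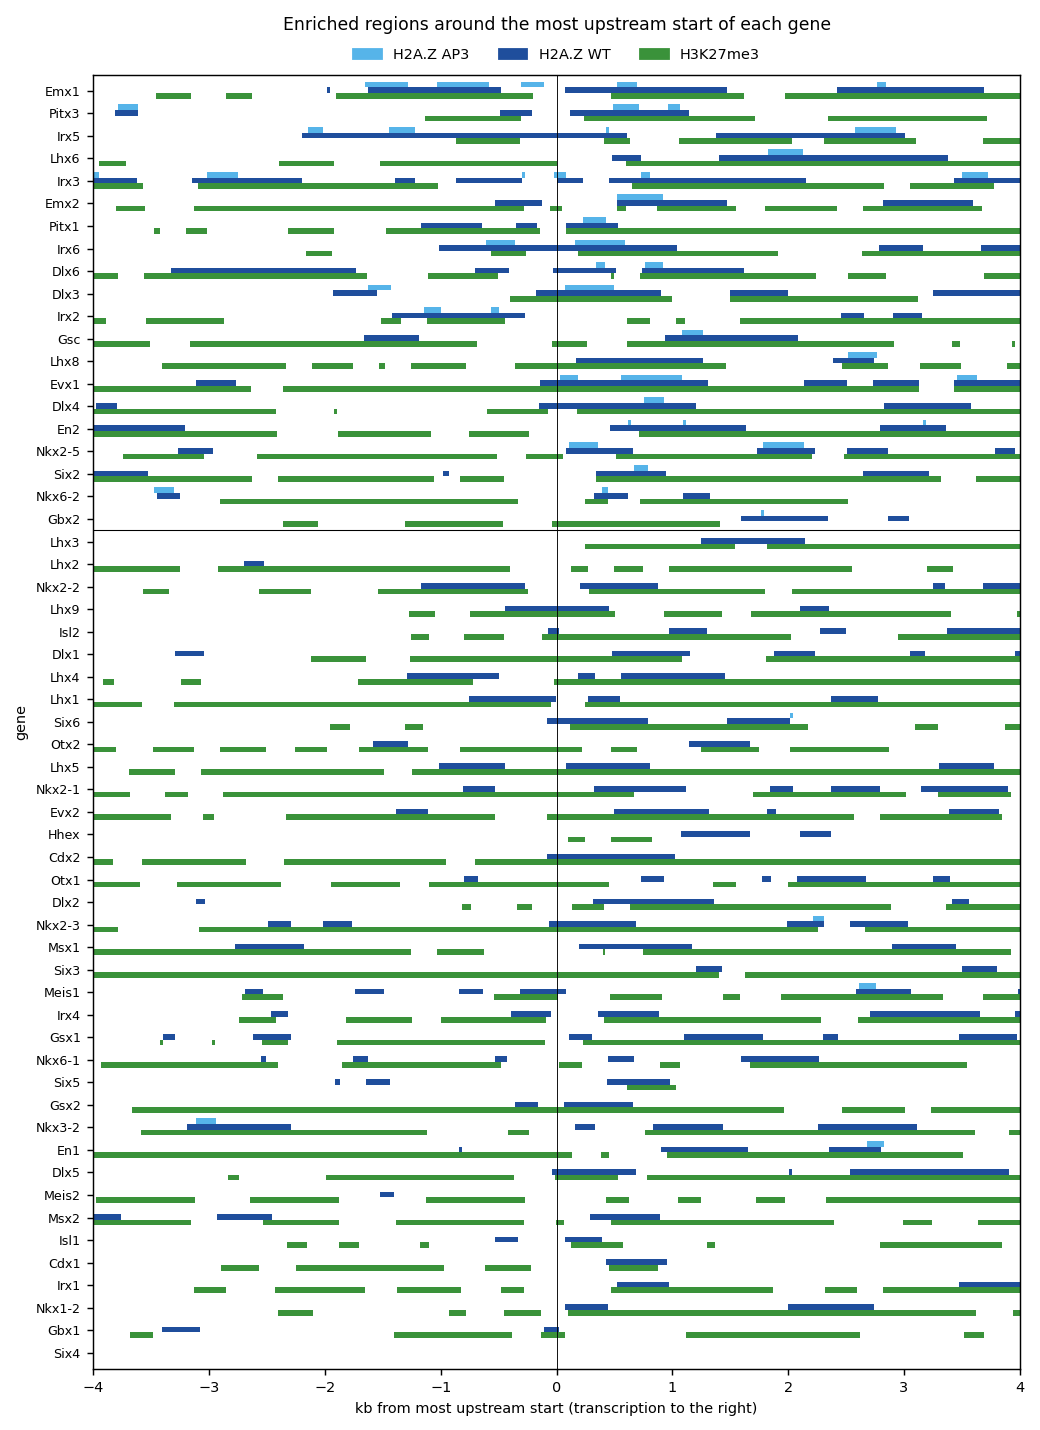
Enriched regions within 4 kb of the most upstream start of each gene, with transcription to the right; H2A.Z AP3 (light blue), H2A.Z WT (dark blue) and H3K27me3 (green) are drawn on separate levels. Genes above the horizontal line have H2A.Z AP3 in their promoter window, which for genes with further starts can reach beyond the map, and within each set genes run from the most to the fewest H2A.Z WT bases, from 3700 bp at Emx1 to 0 bp at Six4.

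Around the most upstream start, the signals had different shapes. At the start itself, 14 of 57 genes were covered by H2A.Z WT, 1 by H2A.Z AP3 (Irx3) and 26 by H3K27me3. H2A.Z WT covered 34 genes at 600 bp downstream (59.6%) and at most 14 at any plotted distance upstream (24.6%, at 50 and 700 bp). Over genes with H2A.Z WT and H3K27me3, it covered 47.5% at the start and peaked at 61.2% only 300 bp downstream. In the first 1 kb on each side, H2A.Z WT covered 2.36 times as many bases downstream as upstream at the homeobox genes, against 1.99 times over genes with both. H2A.Z AP3 covered 3.52 times as many downstream, against 1.95, but its upstream and downstream sums at these genes came to only 997 and 3505 bp. The upstream bases lay mostly at Emx1, Irx6 and Irx3, on chromosomes 6 and 8, and otherwise at Irx2. The H2A.Z AP3 ratio was not recomputed without chromosomes 6 and 8. H3K27me3 was nearly even, at 1.05 times, against 1.32.

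A dip in H3K27me3 lay over the start, as it also did over genes with H2A.Z WT and H3K27me3. It covered 40 homeobox genes at 800 bp upstream (70.2%), 21 at 50 bp upstream (36.8%) and 46 at 1350 bp downstream (80.7%). Over genes with both, these shares were 27.5%, 17.5% and 38.6%. At 27 homeobox genes H3K27me3 regions lay on both sides of the start but not over it. H2A.Z WT flanked an uncovered start at 21 genes and H2A.Z AP3 at 4. Of the 35 H2A.Z AP3 regions, 26 were centred downstream. The counts of flanked starts and of regions centred downstream were not made over other genes. They cannot be called particular to the homeobox genes. Relative to H2A.Z WT, H2A.Z AP3 covered 8.98% of the bases in the upstream 1 kb and 13.4% in the downstream 1 kb, against 14.2% and 13.9% over genes with both.

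**Figure D4:**
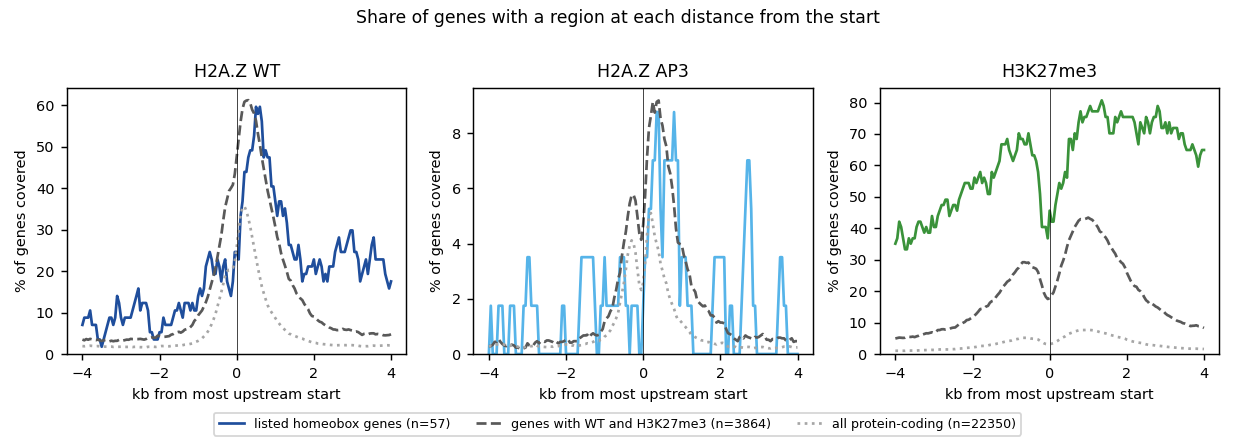
Percent of genes covered by a region at each distance from the most upstream start, for the 57 homeobox genes (coloured line), the 3864 genes with H2A.Z WT and H3K27me3 (dashed) and all 22350 protein-coding genes (dotted), 1 library per panel and with a y axis of its own in each. At the homeobox genes H2A.Z WT rose to 59.6% downstream of the start, H3K27me3 stayed high to 4 kb downstream after a dip at the start, and H2A.Z AP3 covered at most 5 genes (8.77%) at any distance.

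LIM-homeodomain genes, which combine a homeodomain with LIM protein-interaction domains and specify neuron classes, had the longest median H3K27me3 coverage of the classes in bp, in windows with a median of 8463.5 bp. By share of the window their median was 74.5%, below the 89.6% of the Hox-like genes, whose windows had a median of 4001 bp. All 10 had H2A.Z WT and H3K27me3, with medians of 1896.5 and 5889.5 bp, and 2 had H2A.Z AP3. Lhx2, needed for the eye and cortex, had 2152 bp of H2A.Z WT and 8100 bp of H3K27me3, the most of any gene in the list, over 73.4% of a window of 11037 bp. Both of its promoters had H3K27me3 (3800 and 4300 bp), whereas H2A.Z WT was at the downstream promoter only. Lhx3, a pituitary and motor neuron regulator, had 2250 bp of H2A.Z WT and 6865 bp of H3K27me3. Its close relative Lhx4 had 1850 and 3019 bp. Lhx9, needed for the gonad, had 2075 and 7309 bp, split evenly over a pair of promoters. Lhx1, a head organizer gene, had 1425 and 6411 bp, and Lhx5, of the hippocampus, 1300 and 3751 bp. None of these 6 had H2A.Z AP3 in the window.

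The 2 LIM genes with H2A.Z AP3 were Lhx6 and Lhx8, both regulators of ventral forebrain neurons. Lhx6 had 2725 bp of H2A.Z WT, 300 bp of H2A.Z AP3 and 7736 bp of H3K27me3, and Lhx8 had 1450, 250 and 3715 bp. At Lhx6 the mutant region lay at the upstream promoter, where H2A.Z WT covered 2225 bp, and not at the downstream one, where it covered 500 bp. Each gene had a single H2A.Z AP3 region, in a coding exon, which began 1828 bp downstream of the most upstream start at Lhx6 and 2515 bp at Lhx8. Isl2 and Isl1, regulators of motor neurons, differed in H3K27me3. Isl2 had 1943 bp of H2A.Z WT and 5368 bp of H3K27me3. Isl1, also a gene of cardiac progenitors, had 525 and 775 bp. Neither had H2A.Z AP3.

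All 8 Nkx genes had H2A.Z WT and H3K27me3, and 2 had H2A.Z AP3. Nkx2-5, a core cardiac factor, had 841 bp of H2A.Z WT, 466 bp of H2A.Z AP3 and 3301 bp of H3K27me3, so the mutant covered 55.4% as many bases as the wild type. This was the highest such value outside chromosomes 6 and 8. Its regions of 350 and 250 bp were both in coding exons and wholly inside H2A.Z WT. Nkx6-2, a gene of oligodendrocytes, had a single H2A.Z AP3 region of 50 bp that had no base in the list at the stricter threshold of 1e-12, beside 525 bp of H2A.Z WT and 3158 bp of H3K27me3.

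The other Nkx genes had no H2A.Z AP3 in the window. Nkx2-2, of the ventral neural tube and pancreas, had the most H2A.Z WT of them (2129 bp) and 5679 bp of H3K27me3. At Nkx2-3, of spleen and gut vessels, H3K27me3 covered the whole window (4001 bp) and H2A.Z WT 1001 bp of it. Nkx2-1, of thyroid and lung, had 1231 bp of H2A.Z WT and 2976 bp of H3K27me3. H2A.Z WT was shorter at Nkx6-1, of beta cells and motor neurons (856 bp), at Nkx3-2, of spleen and axial skeleton (792 bp), and at Nkx1-2, of the tail bud (381 bp). Their H3K27me3 spanned 2081, 2577 and 2381 bp.

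Among the Dlx genes, which act in forebrain interneurons and in the jaw and limb skeleton, 3 of 6 had H2A.Z AP3. The 6 genes form 3 pairs that face each other, so that both genes of a pair lie between its starts. Dlx3, of hair, tooth and placenta, had 1950 bp of H2A.Z WT, 625 bp of H2A.Z AP3 and 1903 bp of H3K27me3. Its neighbour Dlx4 had 1350, 175 and 2836 bp. Both H2A.Z AP3 regions nearest to these starts lay in coding exons. Dlx6 had 1992, 225 and 2517 bp, and its neighbour Dlx5 had 733 bp of H2A.Z WT, 3408 bp of H3K27me3 and no H2A.Z AP3 in the window. Dlx1 had 1862 bp of H2A.Z WT and 5568 bp of H3K27me3, and Dlx2 1050 and 2644 bp.

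The Dlx pairs differed in what lay between the starts. Between Dlx1 and Dlx2, 18.6 kb apart, H3K27me3 covered 85.7% of bases and H2A.Z WT 20.5%, with no H2A.Z AP3. Between Dlx5 and Dlx6, 18.8 kb apart, H3K27me3 covered 64.0%, H2A.Z WT 22.5% and H2A.Z AP3 425 bp. Between Dlx3 and Dlx4, 26.2 kb apart, H3K27me3 covered 30.6%, H2A.Z WT 26.5% and H2A.Z AP3 1250 bp. The share under H2A.Z WT thus ranged from 20.5% to 26.5%, and that under H3K27me3 from 30.6% to 85.7%. The remaining pairs within 250 kb were Six2 and Six3, Cdx2 and Gsx1, and Six4 and Six6, with H3K27me3 over 35.7%, 18.2% and 6.33% of the bases between them.

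The other NK-like genes, regulators of head, brain and skin structures, ranged widely. Emx1 had 3700 bp of H2A.Z WT, 2125 bp of H2A.Z AP3 and 6420 bp of H3K27me3. Its relative Emx2, of cortex and urogenital tract, had 2125, 400 and 5571 bp. At Emx1 the mutant protein was at both promoters (1200 and 925 bp). Of the engrailed genes, which act at the midbrain-hindbrain boundary, En2 had 1175 bp of H2A.Z WT, 2611 bp of H3K27me3 and H2A.Z AP3 regions of 25 bp each, absent at 1e-12, while En1 had 775 and 3251 bp and no H2A.Z AP3. Msx1, of tooth and palate, had 975 bp of H2A.Z WT and 2426 bp of H3K27me3, and Msx2, of the skull, 600 and 2826 bp. Hhex, a gene of anterior endoderm and liver, had 1100 bp of H2A.Z WT but only 500 bp of H3K27me3 and no H2A.Z AP3. Its 3 H2A.Z WT regions all lay downstream of both H3K27me3 regions.

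Of the PRD-class genes all 5 had H2A.Z WT and H3K27me3, and 3 had H2A.Z AP3. Pitx3, of midbrain dopamine neurons and lens, had 3250 bp of H2A.Z WT, 325 bp of H2A.Z AP3 and 5300 bp of H3K27me3. Pitx1, of the hindlimb, had 2125, 200 and 6352 bp. Both Pitx genes had a pair of promoters, and in each the H2A.Z AP3 lay at the upstream one only, in an intron. At Pitx3 that promoter had the shorter H2A.Z WT coverage (1300 against 1950 bp). Gsc, a gene of the gastrula organizer, had 1539, 175 and 3001 bp, with all of its H2A.Z WT inside H3K27me3. Otx2 and Otx1, of the anterior brain, had 1400 and 1075 bp of H2A.Z WT, 4969 and 3675 bp of H3K27me3, and no H2A.Z AP3.

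The Iroquois genes, TALE-class regulators of neural and heart patterning in a cluster on each of chromosomes 8 and 13, differed between the clusters. Those on chromosome 8 all had H2A.Z AP3 and long H2A.Z WT. Irx5 had 3226 bp of H2A.Z WT, over 80.6% of its window and including a region of 2800 bp across the start, with 250 bp of H2A.Z AP3 and 1720 bp of H3K27me3. Irx3 had 2523, 200 and 2326 bp, and Irx6 2050, 675 and 2088 bp. In all 3, H3K27me3 was shorter than or nearly equal to H2A.Z WT. On chromosome 13, Irx2 had 1600, 225 and 4350 bp, and the others had no H2A.Z AP3. Irx4, of the heart ventricle, had 875 bp of H2A.Z WT and 3070 bp of H3K27me3, and Irx1 had 450 and 2496 bp. Since the clusters are on different chromosomes and only that on chromosome 8 lies where H2A.Z AP3 was called more often at all genes, cluster and chromosome cannot be told apart. This holds for H2A.Z WT too, which covered 47.4% of the listed genes' window bases on chromosomes 6 and 8 and 20.2% elsewhere. Over genes with H2A.Z WT and H3K27me3 these shares were 22.7% and 15.0%. The Meis genes, cofactors of Hox proteins, had no H2A.Z AP3. Meis1 had 900 bp of H2A.Z WT and 2264 bp of H3K27me3. Meis2 had 725 and 3925 bp, and of its 4 separate promoters only the most upstream had H2A.Z WT.

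Among the SINE-class genes, which act in eye, kidney and muscle, Six4 stood out by having no region at all. Six2, of kidney progenitors, had 650 bp of H2A.Z WT, 125 bp of H2A.Z AP3 and 2976 bp of H3K27me3 and was the 1 member of the 5 with the mutant. Six3, of forebrain and eye, had 925 bp of H2A.Z WT under 7740 bp of H3K27me3. Six6, of the eye, had 1407 and 2207 bp, with an H2A.Z AP3 region outside its window, 2019 bp from the start. Six5 had 800 and 425 bp, the shortest H3K27me3 coverage of the 56 genes with any.

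The Hox-like genes outside the Hox clusters all had H2A.Z WT and H3K27me3, and 2 of 8 had H2A.Z AP3. Evx1 and Evx2 lie beside the HoxA and HoxD clusters and act in the primitive streak, spinal cord and limb. At Evx1, H3K27me3 covered the whole window (4055 bp), with 1450 bp of H2A.Z WT and 675 bp of H2A.Z AP3. At Evx2 the values were 3993 and 1175 bp with no H2A.Z AP3. The start of the noncoding 5730457N03Rik lies 7 bp from a start of Evx1 on the opposite strand, so its regions cannot be assigned to either gene. Gbx2, a gene of the anterior hindbrain, had 411 bp of H2A.Z WT, a single 25-bp H2A.Z AP3 region and 2300 bp of H3K27me3, and Gbx1 had 125 bp of H2A.Z WT, the least of the genes with any, and 2107 bp. Cdx2, of trophectoderm and intestine, had 1100 and 3751 bp, and Cdx1, of the caudal embryo, 525 and 1853 bp. Gsx1 and Gsx2, of the ventral telencephalon, had 875 and 800 bp of H2A.Z WT and 3572 and 3962 bp of H3K27me3. None of these 4 had H2A.Z AP3.

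Joining H3K27me3 regions across gaps of up to 1 kb gave long domains at these genes. The longest domain touching the window had a median of 12075 bp (425 to 50875 bp, n = 56), against 1550 bp over the 4060 genes with H3K27me3. It reached 5 kb at 48 genes and 10 kb at 34, and these counts were not made over all genes. The longest was at Evx2 (50875 bp), followed by Lhx2 (26200 bp), Nkx2-3 (24700 bp) and Six3 (22475 bp), and Dlx1 and Dlx2 shared a domain of 21575 bp. Domains were not cut at gene ends. That of Evx2, a gene beside the HoxD cluster, ran to chr2:74542750, whereas the gene ends at 74497918, so most of it lay beyond the gene. The domain of Evx1, beside HoxA, also reached past both ends of its gene. The domains were shortest at Six5 (425 bp), Hhex (725 bp) and Isl1 (1250 bp). Within the domains, H2A.Z WT covered a median of 2500 bp.

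Some genes without H2A.Z AP3 in the window had it elsewhere in the domain. This was so for 16 of the 37, so that 36 of the 56 genes with H3K27me3 (64.3%, interval 51.2 to 75.5) had the mutant in window or domain, against 46.3% of all 4060 genes with H3K27me3. Without chromosomes 6 and 8 it was 29 of 49 (59.2%, interval 45.2 to 71.8), against 42.4%. The domains searched were longer at the homeobox genes (median 12075 against 1550 bp), and their part in these shares was not tested. The longest amount of H2A.Z AP3 in a domain was at Emx1 (2200 bp), then Evx1 (1750 bp of its 20400 bp domain). At Evx2 it was 450 bp.

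**Figure D5:**
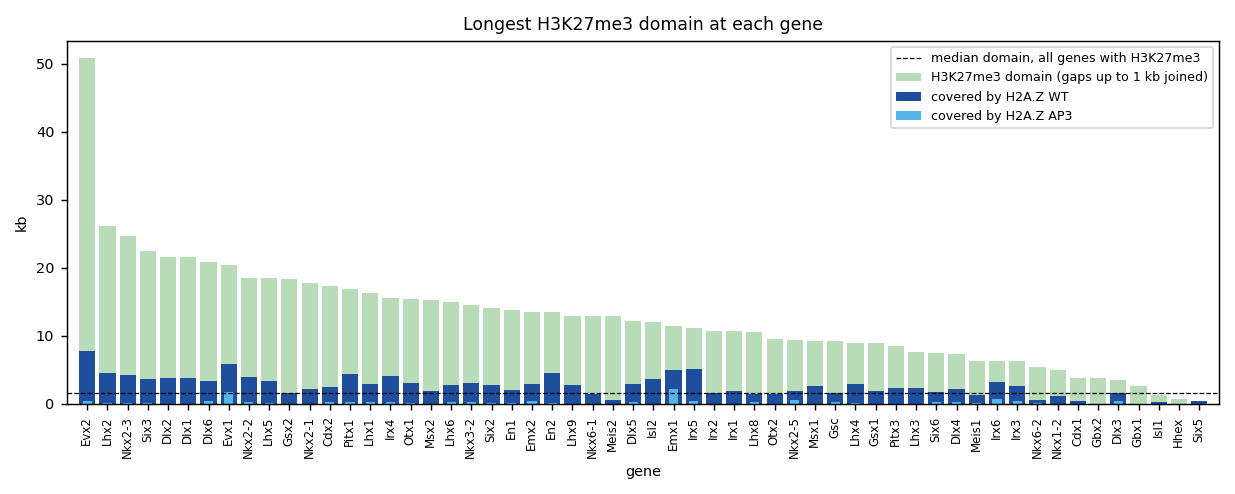
Length in kb of the longest H3K27me3 domain touching each gene's promoter window (pale bars), with the bases inside it covered by H2A.Z WT (dark) and H2A.Z AP3 (light) drawn over it from 0, for the 56 genes with H3K27me3. Domains ran from 425 bp at Six5 to 50875 bp at Evx2, most of the latter beyond the gene itself. Of the 56 genes, 53 lay above the dashed median of 1550 bp over all genes with H3K27me3.

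At the stricter threshold of 1e-12, H2A.Z WT and H3K27me3 were each found at 56 of 57 genes, against 60.0% and 15.7% of all genes. H2A.Z AP3 was found at 17 (29.8%, interval 19.5 to 42.7), against 18.8%. Of the 20 genes with H2A.Z AP3 at 1e-9, 16 kept it, and those that lost it were Nkx6-2, En2, Irx3 and Gbx2. The share of regions with a base at 1e-12 was 23 of 35 for H2A.Z AP3, 130 of 146 for H2A.Z WT and 184 of 204 for H3K27me3. Regions of H2A.Z AP3 at the homeobox genes included 5 of a single bin, so several of its calls rested on little sequence.

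The pattern was also looked for in 89 other homeobox genes outside the Hox clusters. H2A.Z WT lay at 80 of them (89.9%, interval 81.9 to 94.6), H2A.Z AP3 at 32 (36.0%, interval 26.8 to 46.3) and H3K27me3 at 67 (75.3%, interval 65.4 to 83.1). The share with H2A.Z AP3 was thus near that of the 57 genes (35.1%), and the share with H3K27me3 lay below the lower bound of their interval. The 89 genes included the ESC markers Nanog and Pou5f1, which had no region of any library in their windows. Median coverage was 1010 bp for H2A.Z WT and 2050 bp for H3K27me3. Among the 64 with both, 27 (42.2%) had H2A.Z AP3. The other homeobox genes with the most H2A.Z AP3 included Noto (1275 bp), Pou2f2 (1125 bp), Pou4f2 (925 bp), Nkx6-3 (875 bp) and Tlx2 (850 bp). All of these but Pou2f2 lie on chromosome 6 or 8. H2A.Z AP3 lay at 6 of the 10 other homeobox genes on these chromosomes (60.0%, interval 31.3 to 83.2) and at 26 of the 79 elsewhere (32.9%, interval 23.6 to 43.9).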

How the data were processed

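The values used were those of the deposited lists of enriched regions, 1 list per library and threshold, which hold the chromosome, start and end of each region and no score or read count. According to the methods and the submitters' processing notes, the authors aligned reads to mm9 with Bowtie 0.12.3. Reads were extended to the mean fragment length, allocated to 25-bp bins and called with a Poisson model at 1e-9. Bins also had to pass a minimum fold over input. The methods do not describe the lists named for 1e-12, which served as an alternative. How depth, unknown here, would alter which regions pass cannot be seen from the lists. The GENCODE vM1 annotation on NCBIM37, the assembly of mm9, gave transcript starts and sequence.

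Each gene's windows reached 2 kb either side of every start, overlapping windows were merged, and an overlap of 1 bp counted. Genes with several starts have longer windows, so more bases can be covered. H3K27me3 domains joined gaps of up to 1 kb. With 1 library per group no test was made. Shares carry 95% Wilson intervals, and medians carry order-statistic intervals over genes. The gene list, the other lists and the comparisons were chosen with earlier results of these data known. Every listed gene was named, with more detail for the 5 with the most bases per library, genes without a region, genes on chromosomes 6 and 8 and neighbours within 250 kb. Gsx2 has a pair of protein-coding entries in the annotation, and the one with the lower identifier was used. Procedures were tested on simulated data. Python 3.11.15, NumPy 2.4.6, SciPy 1.17.1, pandas 2.3.3 and Matplotlib 3.10.9 were used. Alternatives were the 1e-12 lists, windows of 1 and 5 kb, other choices of starts, regions of at least 100 bp, the omission of chromosomes 6 and 8, and other joining of domains.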

Additional observations from a re-analysis of the deposited data

Results flagged for a closer look

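At 4 of the 57 genes, the H2A.Z WT list at the stricter threshold of 1e-12 held a region that shared no base with the list at 1e-9, although a stricter threshold should only remove regions. These regions, which entered only the counts at 1e-12, were 25 bp at Lhx6, 200 bp at Dlx1, 200 bp at Gbx1 and 25 bp at Evx2. The same was seen for H2A.Z AP3 at 1 gene, Meis1, with 25 bp, so that H2A.Z AP3 was found at this gene only at 1e-12. There was no such region for H3K27me3. At Gbx1 the 200 bp exceed the 125 bp of H2A.Z WT that its window had at 1e-9.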

How the results depend on the processing

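No paired analysis was possible because each group was 1 library and the labels give no shared replicate numbers, and leaving out a replicate was not possible for the same reason. Of 66 values recomputed under 9 alternatives, 48 stayed within 1.5 times the reported count or within the interval of the reported value, and 18 moved further. A count of 56 of 57 could pass the factor of 1.5 only by falling. Counts without chromosomes 6 and 8 were over 50 genes and were compared unscaled with counts over 57. The 48 are therefore no measure of how firm the counts are. For the shares of H2A.Z WT bases, the interval treated 25-bp bins as independent (8.8 to 10.9% and 78.4 to 81.2%). Neighbouring bins belong to the same regions, so these intervals are too narrow and values move out of them easily. The number of genes with H2A.Z WT was 55 or 56 of 57 and with H3K27me3 56 of 57 under every alternative with all chromosomes, and with H2A.Z AP3 it ranged from 17 to 32. With the lists at 1e-12, H2A.Z AP3 bases came to 6.4% of H2A.Z WT bases (9.82% as reported), 73.8% of H2A.Z WT bases lay inside H3K27me3 (79.8% as reported), and the median domain was 8687.5 bp (12075 bp as reported). With windows of 1 kb the median coverage was 875 bp for H2A.Z WT and 1644 bp for H3K27me3. With windows of 5 kb it was 2250 and 6617 bp, H2A.Z AP3 lay at 32 genes (56.1%, against 27.3% of all genes), all 3 regions lay at 32 genes, and H2A.Z AP3 came to 8.41% of H2A.Z WT. The medians and counts changed with the amount of sequence searched. With the starts of protein-coding transcripts only, 77.7% of H2A.Z WT lay inside H3K27me3. With the most upstream start only, this share was 76.5% and the medians were 875 and 2590 bp. Without chromosomes 6 and 8, H2A.Z AP3 came to 5.55% of H2A.Z WT, and 82.8% of H2A.Z WT lay inside H3K27me3. The median domain was 2850 bp with no joining and 15462.5 bp with gaps of up to 3 kb joined. The cause of the change in the H2A.Z AP3 percentage at 5 kb and of the changes at 1e-12 and without chromosomes 6 and 8 was not tested. The depth of the libraries is unknown, so a gene without an H2A.Z AP3 region cannot be called free of the mutant protein, and the lists carry no signal height with which to compare its level between genes.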

Other observations

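Of the 57 homeobox genes, 16 had the start of another annotated gene in their windows, 17 such genes in all, most of them noncoding and on the opposite strand. The closest were 5730457N03Rik, 7 bp from a start of Evx1, Emx2os, 55 bp from a start of Emx2, 4930447C04Rik, 138 bp from the start of Six6, and Dlx1as, 186 bp from a start of Dlx1. Regions at these genes lie near both starts.

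The 10 genes with separate promoters had 22 promoters in all. H2A.Z WT lay at 18 of these, H2A.Z AP3 at 5 and H3K27me3 at 20. Promoters with H3K27me3 and no H2A.Z WT were the upstream promoter of Lhx2, with 3800 bp of H3K27me3, and the most downstream promoter of Meis2, with 25 bp. The 2 promoters with no region of any library both belonged to Meis2, a gene with 15 distinct starts.

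The Iroquois genes of a cluster lie far apart, and little of the sequence between them was covered. Between Irx3 and Irx5, 556 kb apart, H2A.Z WT covered 3.19% of bases, H2A.Z AP3 0.247% and H3K27me3 1.08%. Between Irx5 and Irx6, 316 kb apart, the values were 4.14%, 0.197% and 3.37%. On chromosome 13 they were 0.722%, 0.0413% and 0.838% between Irx1 and Irx2, 665 kb apart. H2A.Z WT thus covered more of the intervals in the chromosome 8 cluster than in that of chromosome 13. Over genes with H2A.Z WT and H3K27me3, it also covered more of the promoter windows on chromosomes 6 and 8 than elsewhere (22.7% against 15.0%). Cluster and chromosome cannot be told apart here either.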
